A study of Mus musculus with 10 samples.

Results

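Stereocilia, the rods that make up the hair bundle of a hair cell (HC), are stiffened by parallel actin filaments held together by bundling proteins. Here, 10 genes of these bundles were followed: *Espn*, *Espnl*, *Fscn1*, *Fscn2*, *Pls1*, *Pls3*, *Eps8*, *Eps8l2*, *Xirp2* and *Triobp*. They were taken by gene symbol from a fixed list, and all 10 were found among the 34590 genes listed for every library. In the data used here, fluorescent cells were picked by hand from dissociated mouse cochleae and sequenced in bulk, with 2 libraries for each of 5 cell types, to compare supporting cells (SCs) that had been converted by Atoh1 (cHCs) with SCs and with native outer and inner HCs (OHCs and IHCs). The SCs (replicates 12 at P27 and 11 at P26) came from mice with Fgfr3iCreER and the Rosa26-CAG-loxP-stop-loxP-tdTomato reporter, a pair of alleles that the cHCs shared. The cHC mice (replicates 13 and 16, both at P33) also carried Atoh1-HA and alpha9 AChR-EGFP. Tamoxifen was given at P12 and P13 in both, so the transgene was switched on in Deiters' and pillar cells, and cHCs were recognised by a reporter of the HC gene *Chrna9* together with tdTomato. The OHCs at P7 (replicates 15 and 14) and the mature OHCs (1 library labelled P21 and 1 labelled P22, together OHCs (P22) below) are labelled as prestin-YFP knock-in heterozygotes. For the OHCs (P7), the study's supplement instead gives a Prestin-CreERT2 line with tdTomato, and this was not settled. For the mature OHCs, it gives later ages than the titles do. The titles mark the P21 library with m, the P22 library with f and both IHC libraries with m. If these letters stand for sex, the mature OHC libraries differ in sex and age together. The IHCs (1 library at P74 and 1 at P75) came from Pval-Cre mice with a tdTomato reporter, which also marks OHCs weakly. Their titles name this reporter Ai9, whereas the study's methods name its tdTomato mice Ai14, and this was not settled either. Values are given below in the order in which the replicates are named here.

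The bundling proteins divide the work. Espins, fascins and plastins cross-link neighbouring filaments along the shaft, with espin known for its part in the length and width of stereocilia. EPS8 and EPS8L2 sit at the tips, where they bind filament ends. XIRP2 is a large actin-binding protein needed for the upkeep of mature bundles, and TRIOBP packs the filaments of the rootlet that anchors a stereocilium in the cuticular plate. Mutations of several of these genes cause deafness in mice or humans.

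Between 15016129 and 40518766 reads were counted on genes per library, and levels are CPM, counts relative to library size scaled by TMM factors, or FPKM (the same per kilobase of exon) where genes are compared with each other. TMM factors lay between 0.930 and 1.20 except in the OHC library labelled P21, with 0.583. Of the aligned reads, 31.5% to 61.8% fell on no gene, the largest shares being the 61.8% and 59.6% of the OHC (P22) libraries. The 10 HC markers summed to 363 to 370 CPM in SCs and to 4342 to 5985 CPM in all other libraries, where *Pou4f3* was at 235 CPM or more. The OHC markers *Slc26a5* and *Ocm* were at 97.5 and 23.4 and at 4.97 and 1.90 CPM in cHCs, against 1060 and 1094 and 3397 and 3158 CPM in OHCs (P7), and the other OHC marker, *Ikzf2*, had levels of 62.7 and 22.5 CPM (cHCs), 39.9 and 296 CPM (SCs) and 462 and 482 CPM (OHCs (P7)). The 10 SC markers summed to 1673 to 2357 CPM in SCs, 880 to 1274 in cHCs, 113 to 368 in OHCs (P7), 10.3 to 22.5 in OHCs (P22) and 927 to 1154 in IHCs, so the IHC libraries held SC transcripts in addition to the IHC marker *Otof* at 5005 and 4213 CPM. The labels number the SC, cHC and OHC (P7) libraries from 11 to 16 and the mature OHC and IHC libraries in a separate, higher series, and a difference between cell types across these series cannot be told apart from one between the series themselves. In bulk samples, fewer expressing cells and less RNA per cell cannot be told apart either. The study calls the replicates biological duplicates, and the ages differ within the SC, OHC (P22) and IHC pairs, whereas the animals behind the cHC and OHC (P7) pairs are not given.

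Differences were tested with edgeR (quasi-likelihood F-tests, 1 model of all 10 libraries, p adjusted by Benjamini and Hochberg over the 16891 genes kept, threshold 0.05). All 10 members were kept, and 6 of them differed among the 5 cell types in a joint test: *Espn*, *Espnl*, *Fscn1*, *Fscn2*, *Xirp2* and *Triobp*, beside 7.81% of all genes. *Pls1*, *Pls3*, *Eps8* and *Eps8l2* did not pass, with adjusted p of 0.196, 0.135, 0.441 and 0.121. In cHCs, 4 of the 10 members were higher than in SCs (*Espn*, *Espnl*, *Fscn2* and *Xirp2*) and 0 were lower, beside 1.75% and 0.0888% of all genes. At an unadjusted p under 0.05, 2 members were lower in cHCs with edgeR, and at the adjusted threshold DESeq2 gave 1 lower member (*Pls3*) and limma-voom 0. The same 4 members were higher in OHCs (P7) than in SCs, where 2.56% of all genes were higher. In OHCs (P22), 5 members were higher than in SCs (*Espn*, *Fscn2*, *Xirp2*, *Triobp* and *Eps8l2*, beside 4.01% of all genes) and 2 were lower (*Espnl* and *Fscn1*, beside 4%). In IHCs, 3 members were higher (*Espn*, *Fscn2* and *Xirp2*, beside 2.23%). These comparisons share the SC libraries. With only SCs and cHCs in the fit, 2 members were called (*Espnl* and *Xirp2*), beside 198 of 14400 genes. With the count files as attached to the sample records, 4 of which belong to another sample, 0 members were called in any comparison, beside at most 1 of all genes.

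**Figure D1:**
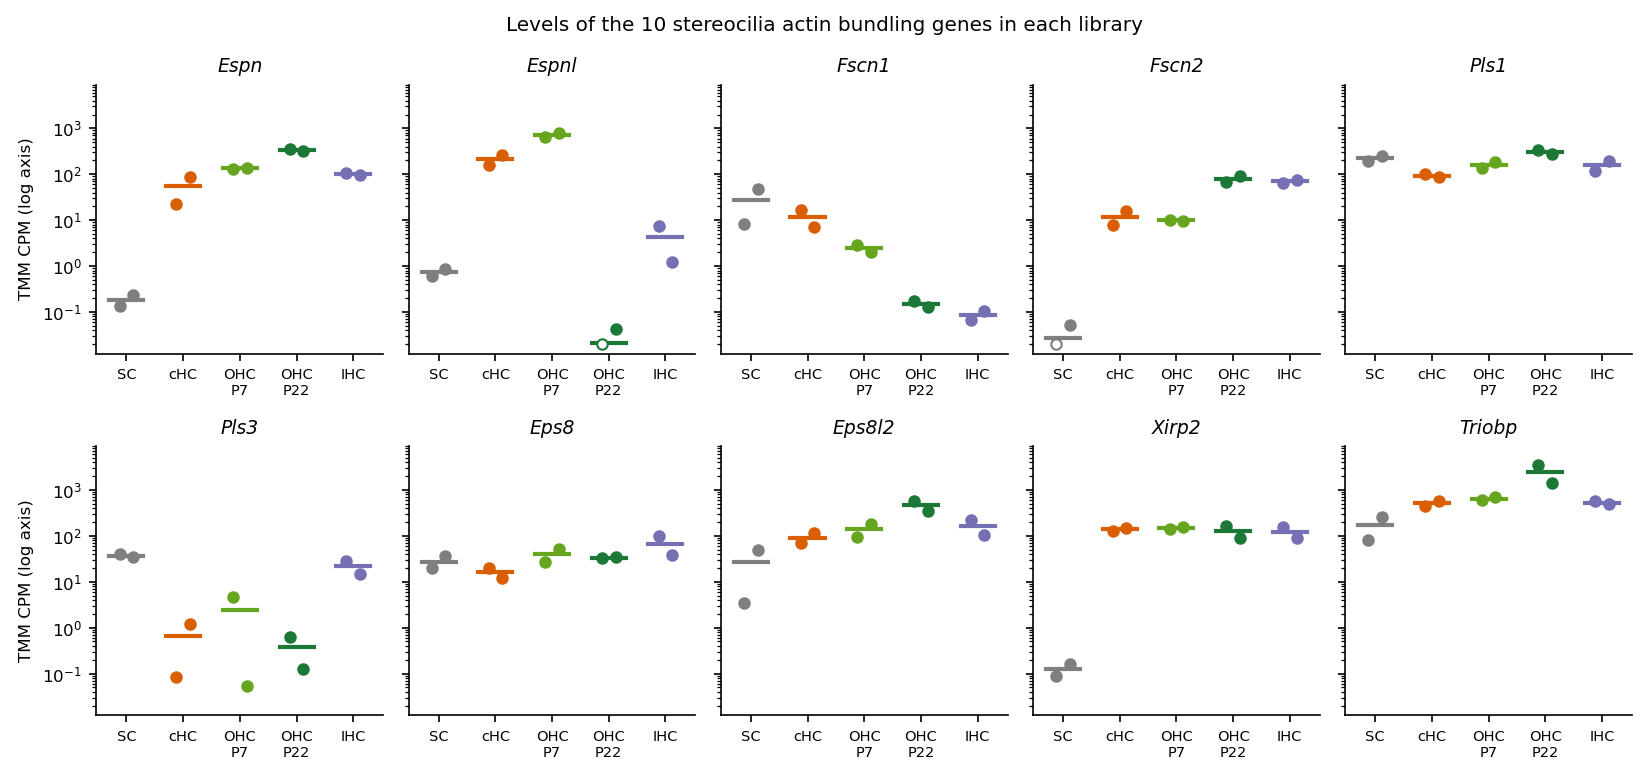
Level of each of the 10 members (TMM CPM, log axis) in the 2 libraries (points) of each cell type, with the mean as a bar; an open point at the bottom stands for 0 counts. Espn, Fscn2 and Xirp2 lie under 0.3 CPM in SCs and above 7 CPM in every other library, Espnl is high in cHCs and OHCs at P7 alone, and Fscn1 is highest in SCs and cHCs.

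*Espn* (chr4:151494440-151526480 in mm9, minus strand) encodes espin, and reads of its 20 annotated transcripts are summed in 1 value. It was at 0.133 and 0.239 CPM in SCs (3 and 9 counts), 22.1 and 88.1 CPM in cHCs, 131 and 140 CPM in OHCs (P7), 353 and 314 CPM in OHCs (P22) and 106 and 97.6 CPM in IHCs. Every HC library lay above both SC libraries, and the cHC libraries were the lowest and the most unequal among the HCs. The log2 fold change from SCs was 8.14 ± 0.91 (SE) in cHCs (edgeR adjusted p = 0.000786), 9.44 ± 0.96 in OHCs (P7) (0.000262), 10.74 ± 1.0 in OHCs (P22) (0.000128) and 9.02 ± 0.94 in IHCs (0.000405). The call in cHCs was lost with only SCs and cHCs in the fit (adjusted p = 0.0551). Against cHCs, *Espn* had a log2 difference of 2.60 ± 0.69 in OHCs (P22) that missed the threshold (adjusted p = 0.0706), and passed it with DESeq2 (0.00463), limma-voom (0.022), without a filter on low counts (0.022), with only genes above 35 CPM in at least 2 libraries (0.0431), without SC replicate 12 (0.0499) and without cHC replicate 16 (0.0355). The cHC library with less *Espn*, replicate 13, had the higher SC marker sum, 1274 against 880 CPM in replicate 16, and the part of this in the difference was not tested.

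*Espnl* (chr1:93218652-93244880, plus strand, 1 transcript) encodes espin-like, a relative of espin that binds class III myosins and is known from developing bundles. It was at 0.621 and 0.876 CPM in SCs (14 and 33 counts), 160 and 265 CPM in cHCs, 646 and 784 CPM in OHCs (P7), 0 and 0.0421 CPM in OHCs (P22) (0 and 1 counts) and 7.54 and 1.20 CPM in IHCs. The groups did not overlap, and *Espnl* was thus abundant in young OHCs and in cHCs picked at P33, and had at most 1 count in the OHCs at P21 and P22. It was higher in cHCs than in SCs by 8.13 ± 1.02 log2 units (edgeR adjusted p = 0.00158) and in OHCs (P7) than in SCs by 9.88 ± 1.09 (0.000472).

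Between single HC types, *Espnl* was the member that edgeR called. From counts summed over libraries, its level in OHCs (P7) was 26154 times that in OHCs (P22), with a 95% interval of 4694 to 1033039, and its level in cHCs was 7924 times that in OHCs (P22), with an interval of 1422 to 312999. These intervals are exact and cover counting error only, since amplified reads are not independent molecules. In the tests across all genes, *Espnl* was lower in OHCs (P22) than in OHCs (P7) (edgeR adjusted p = 0.00225, beside 0.42% of all genes lower) and than in cHCs (0.00116, beside 2.02%). In IHCs, it was lower than in OHCs (P7) by 7.35 ± 0.98 log2 units (edgeR adjusted p = 0.0149, beside 0.249%) and lower than in cHCs by 5.60 ± 0.90 (0.0159, beside 0.503%). It was higher in IHCs than in OHCs (P22), which share a number series (adjusted p = 0.0193, beside 0.977%). The call between IHCs and OHCs (P22) was lost without the P21 library (adjusted p = 0.0841), with limma-voom (0.162) and with only these cell types in the fit (0.222), and that between IHCs and cHCs with only these cell types in the fit (0.0814). *Espnl* was the sole member called in each of these 5 comparisons.

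The low *Espnl* level of SCs still exceeded that of OHCs (P22) (adjusted p = 0.0407), but on few counts, and the call was lost without either OHC (P22) library (0.14 without P21 and 0.0861 without P22), without SC replicate 11 (0.0776), with limma-voom (0.268) and with only these cell types in the fit (0.183). Between OHCs (P7) and cHCs, *Espnl* differed by 1.75 ± 0.76 log2 units, without overlap of the libraries, and did not pass (edgeR adjusted p = 0.428), whereas limma-voom called it (0.0211).

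Since the espins rose together in cHCs, their promoters were searched for 2 E-box motifs that Atoh1 is known to bind, CAGCTG and CAGATG, on either strand. Promoters of RefSeq (GRCm38.p6, 250 bases before to 50 bases after each start) were found for 9 of the 10 members, all but *Eps8*, as 14 windows. A match was present in 5 of the 14, belonging to *Espn*, *Espnl* and *Pls3*, while 30.6% of all 32851 promoters hold one. The matches of the espins are shown with the motif in capitals, on the strand of the gene, because these are the called genes with a match. The window of *Espnl* lies at chr1:91322006-91322035 (plus strand, motif at -57 from the start) and holds CAGATG on the opposite strand. Those of *Espn* lie on the minus strand at chr4:152152573-152152602 (-201 from the most upstream of 3 starts), chr4:152129034-152129063 (-126) and chr4:152128986-152129015 (-78), the last pair before the same start.
Espnl, -57: cttgctgcctccCATCTGccccgggagctg
Espn, -201: gaggccactgggCAGCTGagtgaacgggtc
Espn, -126: ccagggagggtcCAGCTGggtggcacacca
Espn, -78: ccttggaggctcCAGCTGgctcagtccaag
A match describes these letters and is not evidence of binding. *Xirp2* and *Fscn2*, which were also higher in cHCs, had none in their windows.

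*Fscn1* (chr5:143722022-143734864, plus strand) encodes fascin 1, a widely expressed filopodial bundler. It was at 8.30 and 47.1 CPM in SCs, 16.3 and 7.05 CPM in cHCs, 2.88 and 2.02 CPM in OHCs (P7), 0.176 and 0.126 CPM in OHCs (P22) and 0.0673 and 0.103 CPM in IHCs, the mature values resting on 2 or 3 counts per library. SCs and cHCs overlapped, and all native HC libraries lay below both. *Fscn1* was lower in the native HCs as a class (the mean of the 3 native types) than in SCs by 6.42 ± 1.14 log2 units (edgeR adjusted p = 0.00556), 1 of 10 members beside 6.6% of all genes, and higher in cHCs than in native HCs by 5.17 ± 1.11 (0.0265). Without SC replicate 11, the higher SC library, the difference from native HCs was 4.68 log2 units and no longer called (adjusted p = 0.0976). The difference between cHCs and native HCs was lost in the same way without cHC replicate 13 (0.174), without any 1 of the 6 native HC libraries (0.0589 to 0.0881) and with only these cell types in the fit (0.0513). The call in OHCs (P22) against SCs, a log2 difference of -7.49 ± 1.93 (adjusted p = 0.0381), was lost without the OHC library labelled P21 (0.159) or P22 (0.118), SC replicate 11 (0.196), cHC replicate 13 (0.0639) or 16 (0.053), and with only these types in the fit (0.075).

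*Fscn2* (chr11:120222848-120229482, plus strand) encodes fascin 2, the form known from retinal photoreceptors and HC stereocilia. It was at 0 and 0.0531 CPM in SCs (0 and 2 counts), 7.69 and 16.0 CPM in cHCs, 10.3 and 9.49 CPM in OHCs (P7), 67.4 and 90.4 CPM in OHCs (P22) and 65.0 and 75.4 CPM in IHCs. The cHCs and OHCs (P7) overlapped, and the mature HCs, which overlapped with each other, stood above them. From summed counts, the level in cHCs was 388 times that in SCs (95% counting interval 107 to 3206), and in OHCs (P22) it was 2497 times that in SCs (691 to 20631). The tests against SCs passed in cHCs (edgeR adjusted p = 0.0063), OHCs (P7) (0.00597), OHCs (P22) (0.00102) and IHCs (0.00172). When the fit held no other cell types, the calls in cHCs (0.183) and in OHCs (P7) (0.115) were lost. Between mature and young OHCs, *Fscn2* had a log2 difference of 3.0 ± 0.97 that did not pass (edgeR adjusted p = 0.227) and passed with DESeq2 (0.000796).

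*Pls1* (chr9:95653061-95745730, minus strand) encodes plastin 1, also called fimbrin, an abundant cross-linker of stereocilia and of epithelial microvilli. It was at 197 and 248 CPM in SCs, 99.1 and 86.2 CPM in cHCs, 140 and 186 CPM in OHCs (P7), 340 and 271 CPM in OHCs (P22) and 118 and 194 CPM in IHCs. The cHC libraries were the lowest of all 10, and the SC libraries lay between those of young and of mature OHCs. Scaled by library totals alone, SCs (197 and 230 CPM) and OHCs (P22) (198 and 301 CPM) overlapped. The log2 difference between cHCs and SCs was -1.26 ± 0.49 (edgeR adjusted p = 0.278). From cHCs to OHCs (P22) it was 1.72 ± 0.50 (0.0961), which passed with DESeq2 (0.017) and limma-voom (0.0496).

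*Pls3* (chrX:73030993-73120521, minus strand) encodes plastin 3, the widely expressed form. It was at 40.1 and 34.0 CPM in SCs, 0.0850 and 1.22 CPM in cHCs, 4.69 and 0.0545 CPM in OHCs (P7), 0.617 and 0.126 CPM in OHCs (P22) and 28.8 and 14.9 CPM in IHCs. Both SC libraries and both IHC libraries stood above the other 6, and the young OHC libraries differed more from each other than the cHCs from the OHCs (P22). No comparison passed in the main edgeR fit. Between native HCs and SCs, *Pls3* was called by edgeR without a filter on low counts (adjusted p = 0.0227) and by limma-voom (0.0129). The log2 difference between cHCs and SCs was -5.80 ± 2.17 (adjusted p = 0.257, and 0.00577 with DESeq2), and that between IHCs and OHCs (P22) was 5.91 ± 2.20 (0.244, and 0.00839 with DESeq2). The 10 SC markers summed to 927 to 1154 CPM in IHCs and 880 to 1274 CPM in cHCs, with different markers leading. In cHCs, the highest were *Fgfr3* (458 and 430 CPM) and *Prox1* (247 and 293 CPM). In IHCs, they were *Gjb2* (611 and 468 CPM) and *Slc1a3* (243 and 193 CPM). Of the 10 markers, 2 had a higher mean in IHCs than in SCs (*Gjb2* and *Slc1a3*) and 8 a lower one. The part of SC transcripts in the IHC level of *Pls3* was not tested.

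*Eps8* (chr6:137425766-137603397, minus strand) encodes a tip protein that caps and bundles actin and is needed for bundle growth. It was at 19.5 and 35.4 CPM in SCs, 19.8 and 12.3 CPM in cHCs, 26.4 and 52.7 CPM in OHCs (P7), 32.5 and 34.1 CPM in OHCs (P22) and 97.4 and 38.0 CPM in IHCs. Ordered by their means (IHCs, OHCs (P7), OHCs (P22), SCs and cHCs), neighbouring cell types overlapped throughout, and no comparison passed. The log2 difference was -0.77 ± 0.86 between cHCs and SCs (edgeR adjusted p = 0.735) and 2.08 ± 0.89 between IHCs and cHCs (0.369).

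*Eps8l2* (chr7:148524779-148548919, plus strand) encodes the relative of EPS8 at the tips of shorter stereocilia. It was at 3.37 and 49.7 CPM in SCs, 69.6 and 112 CPM in cHCs, 96.2 and 178 CPM in OHCs (P7), 563 and 353 CPM in OHCs (P22) and 215 and 105 CPM in IHCs. All HC libraries lay above the SC libraries and the OHCs (P22) above all others, but the SC libraries differed by more than 10 times. *Eps8l2* was higher in OHCs (P22) than in SCs by 4.11 ± 1.05 log2 units (edgeR adjusted p = 0.0368), a call that was lost without the P21 library (0.103) and with only these cell types in the fit (0.0688). The log2 difference between cHCs and SCs was 1.77 ± 0.96 (adjusted p = 0.408). Without SC replicate 11 it was 4.75 log2 units and called (0.0233). SC replicate 11, the library with more *Eps8l2* and *Fscn1*, also had the larger sum of 4 fibroblast and bone markers (6475 against 2141 CPM). Nearly all of it was *Sparc* (6379 and 2120 CPM in replicates 11 and 12). *Dcn* (57.5 ± 54.8 CPM, mean and SD in SCs) was also higher in replicate 11. The collagens went the other way: *Col1a1* and *Col1a2* averaged 0.355 and 0.643 CPM in SCs, with no count in replicate 11. The part of such transcripts in these levels was not tested. Exons of *Eps8l2* share 1482 bp (33.9%) with the antisense gene *B230206H07Rik*, and since the strand setting of the counting is not stated, their reads may be mixed.

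*Xirp2* (chr2:67284059-67364671, plus strand) was at 0.0887 and 0.159 CPM in SCs (2 and 6 counts), 129 and 151 CPM in cHCs, 138 and 152 CPM in OHCs (P7), 160 and 88.5 CPM in OHCs (P22) and 158 and 87.6 CPM in IHCs. The 4 HC types overlapped, so that cHCs (140 ± 15.5 CPM, SD, n = 2) had the level of OHCs (P7) (145 ± 10.2), OHCs (P22) (124 ± 50.6) and IHCs (123 ± 50) within the spread of replicates. The difference from SCs was 10.05 ± 0.88 log2 units in cHCs (edgeR adjusted p = 0.000124), 10.09 ± 0.88 in OHCs (P7) (8.66e-05), 9.87 ± 0.87 in OHCs (P22) (9.37e-05) and 9.86 ± 0.87 in IHCs (0.000122). Each of these 4 calls held in 18 of 19 alternatives, and was lost with the files as attached to the records. *Xirp1*, its relative in striated muscle, was at 0 in the SC and native HC libraries and at 0.0850 and 0.127 CPM in cHCs. Of the 4 muscle markers, *Acta1*, *Myh1* and *Tnnt3* were at 0 in both cHC libraries, and *Ckm* was at 0 and 0.431 CPM. In OHCs (P22), *Tnnt3* was at 14.3 and 4.67 CPM and the other 3 were at 0.

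*Triobp* (chr15:78778154-78836299, plus strand, 11 transcripts, of which the short form is expressed in many tissues) was at 79.1 and 256 CPM in SCs, 442 and 580 CPM in cHCs, 600 and 682 CPM in OHCs (P7), 3475 and 1375 CPM in OHCs (P22) and 560 and 487 CPM in IHCs. All HC libraries lay above the SCs, and the OHCs (P22) above all others. The larger OHC (P22) value came from the library labelled P21, and scaled by library totals alone the values were 2024 and 1529 CPM. *Triobp* was higher in OHCs (P22) than in SCs by 3.85 ± 0.64 log2 units (edgeR adjusted p = 0.00465) and in native HCs as a class by 2.48 ± 0.55 (0.017), the latter not without SC replicate 12 (0.0733). In cHCs, it differed from SCs by 1.61 ± 0.59 log2 units (adjusted p = 0.246), and this passed without a filter on low counts (0.0231). Between OHCs (P22) and cHCs, the log2 difference was 2.24 ± 0.60 (edgeR adjusted p = 0.0723). This passed with DESeq2 (0.0143), limma-voom (0.0346), no filter (0.00113) and only genes above 35 CPM in at least 2 libraries (0.0485), without either SC library (0.0152 without 12 and 0.0145 without 11), without the OHC library labelled P22 (0.0267) and without the IHC library at P75 (0.0482).

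**Figure D2:**
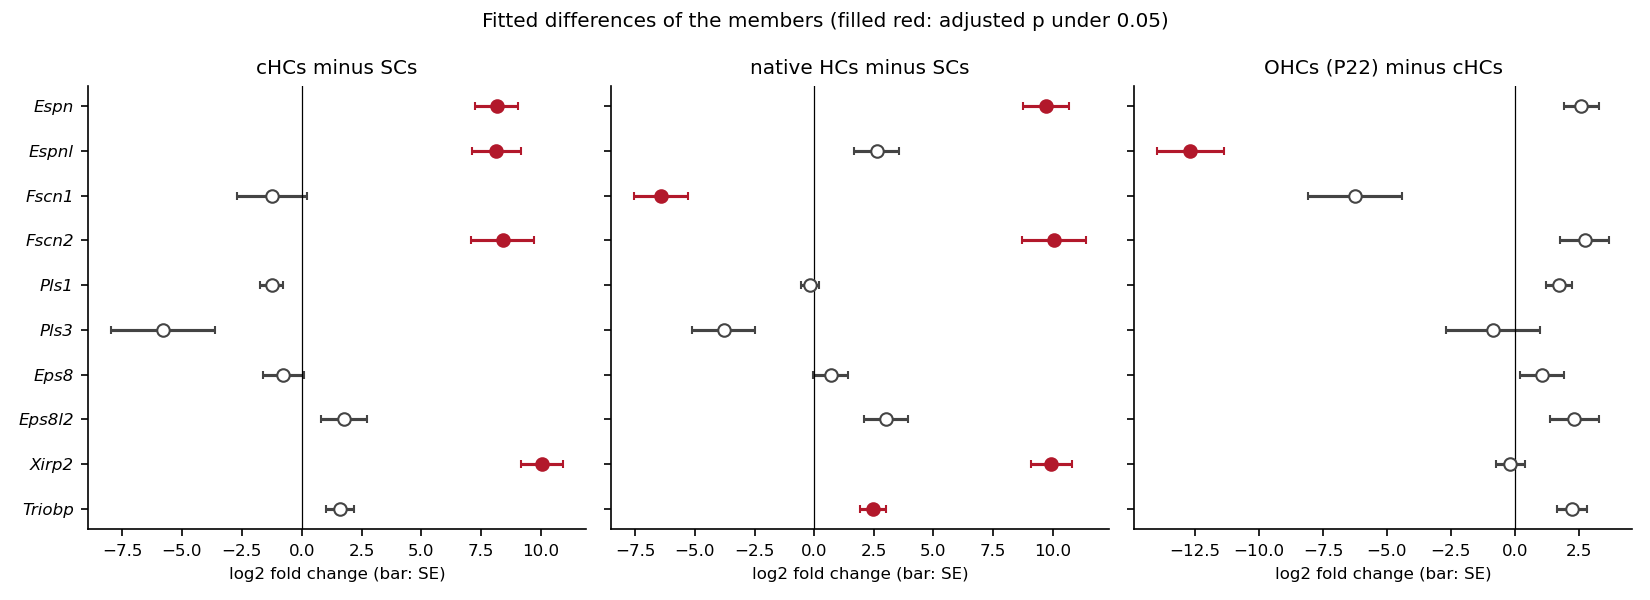
Log2 fold changes of the 10 members with their standard errors, for cHCs minus SCs, native HCs (mean of the 3 native types) minus SCs and OHCs (P22) minus cHCs; filled red points passed the adjusted p threshold of 0.05. In the left panel Espn, Espnl, Fscn2 and Xirp2 are filled, at 8.13 to 10.05 log2 units, and in the right panel Espnl alone, for which the fitted size rests on 1 count in OHCs (P22).

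In the native HCs as a class, 4 members were higher than in SCs (*Espn*, *Fscn2*, *Xirp2* and *Triobp*, beside 3.77% of all genes), and 2 members were higher in cHCs than in native HCs (*Espnl* by 5.51 ± 0.62 log2 units, edgeR adjusted p = 0.00128, and *Fscn1*), beside 3.45%. *Espnl* held in 18 of 19 alternatives. Its native mean was lowered by the mature types, and both cHC libraries (160 and 265 CPM) lay below both OHC (P7) libraries (646 and 784 CPM). *Eps8l2* and *Pls3* missed the threshold between native HCs and SCs, with 3.02 ± 0.92 log2 units (edgeR adjusted p = 0.0621) and -3.80 ± 1.32 (0.0949), and *Espnl*, high in 1 native type and low in the others, gave 2.62 ± 0.96 (0.111). *Eps8l2* passed in 10 of 20 alternatives, among them without SC replicate 11 (6.0 log2 units), and *Pls3* in 4 of 18, among them without OHC (P7) replicate 15 (-5.58). Between OHCs (P7) and cHCs, 0 of the 10 members passed with edgeR, beside 0.343% of all genes. At an unadjusted p under 0.05 it was 1 member, with DESeq2 0 and with limma-voom 1, all of these *Espnl* where there was one. Of all 16891 genes, it was 1884, 1125 and 378. The members' log2 differences between these types ranged from -2.25 ± 1.5 (*Fscn1*) to 1.83 ± 1.83 (*Pls3*), and with such errors a difference of several times cannot be told from none. For *Espn* it was 1.30 ± 0.66 (adjusted p = 0.489).

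Within the espin and fascin pairs, the leading relative differed between cell types (shares are of the pair's summed FPKM and are a description). *Espnl* made up 88.8% and 76.8% of the espins in cHCs and 84.4% and 86.0% in OHCs (P7), and 0% and 0.0147% in OHCs (P22) and 7.27% and 1.33% in IHCs. Its share of 83.7% and 80.1% in SCs rested on fewer than 50 counts per library. *Fscn2* made up 0% and 0.161% of the fascins in SCs, 40.3% and 76.4% in cHCs, 83.6% and 87.0% in OHCs (P7) and at least 99.8% in the 4 mature HC libraries. The cHC libraries thus lay between the SCs and the native HCs. *Pls1* made up most of the plastin pair in every library, with *Pls3* at 15.7% and 11.2% in SCs, 18.2% and 6.59% in IHCs and 3% or less in cHCs and OHCs. The pair leaves out another plastin, *Lcp1*, with mean FPKM close to those of *Pls1* in OHCs (P22) (73.4 against 78.5) and IHCs (39.1 against 40.2). *Lcp1* was lower than *Pls1* in SCs (33.1 against 57.2), cHCs (2.51 against 23.8) and OHCs (P7) (2.38 against 41.8). *Eps8l2* took 18.5% and 64.8% of the EPS8 pair in SCs and 74.3% to 95.8% in all HC libraries.

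**Figure D3:**
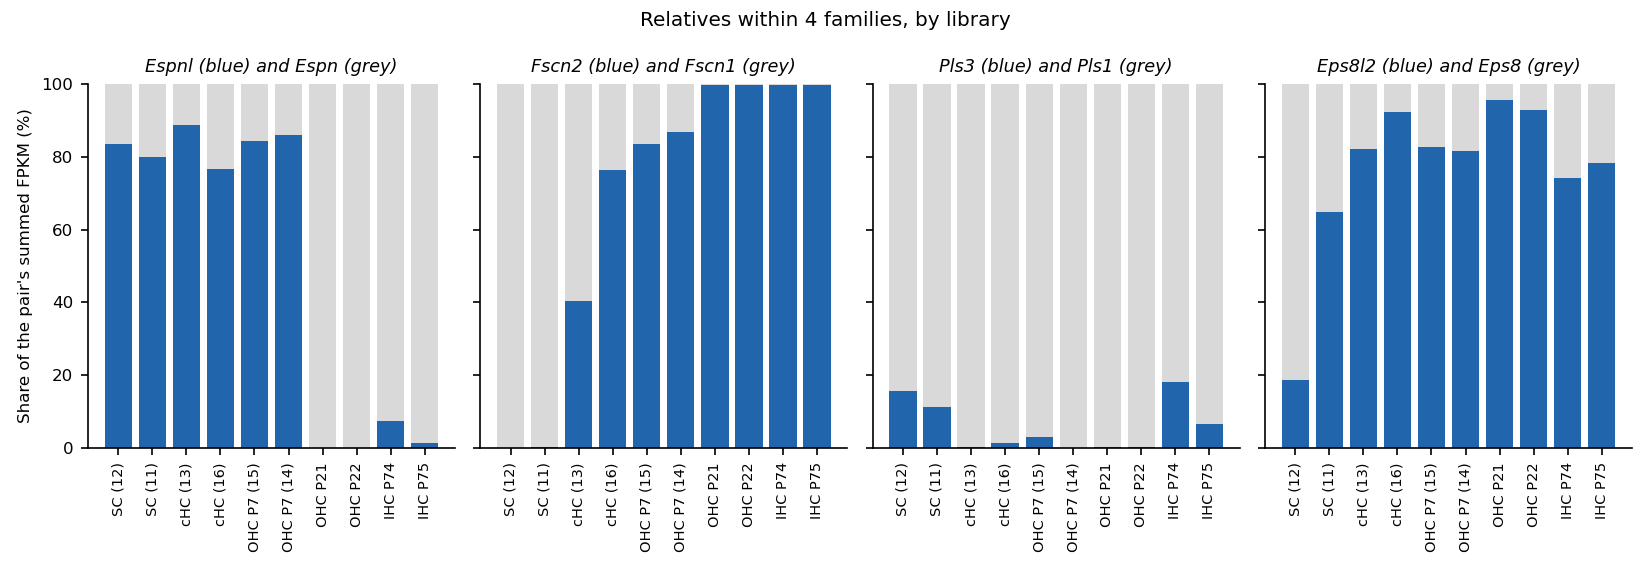
Share (%) of the second relative (blue) in the summed FPKM of 4 pairs, one bar per library in the order SCs, cHCs, OHCs at P7, OHCs at P22 and IHCs; grey is the other relative. The Espnl bars are above 76% in SCs, cHCs and OHCs at P7 and at most 7.27% in mature HCs, and the Fscn2 bars grow from SCs over cHCs and OHCs at P7 to mature HCs.

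Summed over the 10 members, the level was 74.6 and 129 FPKM in SCs, 139 and 190 in cHCs, 278 and 347 in OHCs (P7), 651 and 387.4 in OHCs (P22) and 219 and 189 in IHCs. The cHC libraries overlapped with neither SCs nor OHCs, and 1 of them exceeded the lower IHC library. The leading member changed with the cell type. *Pls1* made up 67.9% and 49.3% of the sum in SCs. *Triobp* led in cHCs (29.7% and 28.5%), followed by *Espnl* (21.1% and 25.6%). *Espnl* led in OHCs (P7) with 42.8% and 41.5%, and *Triobp* led in OHCs (P22) with 49.9% and 33.2%. The IHC libraries were led by *Triobp* (23.9%) at P74 and by *Pls1* (26.3%) at P75.

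**Figure D4:**
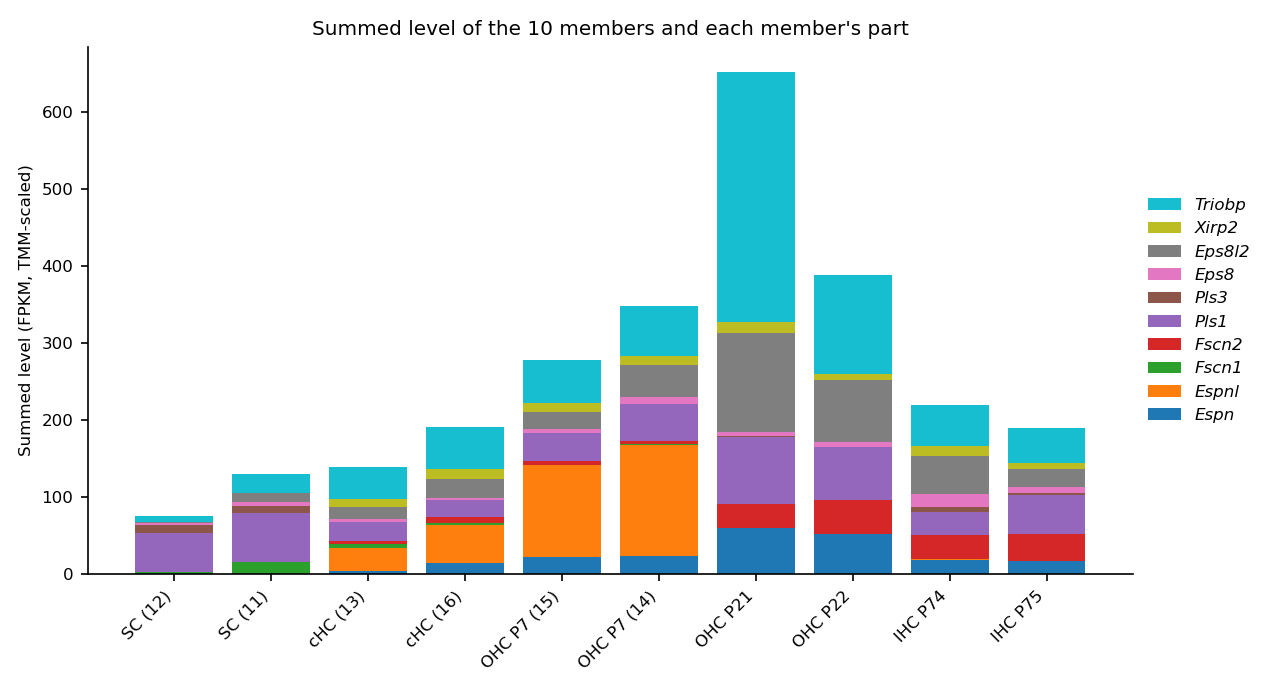
Summed FPKM of the 10 members in each library, stacked by member. Pls1 (purple) fills 67.9% and 49.3% of the SC bars, Espnl (orange) 41.5% to 42.8% of the OHC bars at P7, and the OHC bars at P22, without visible Espnl, are the tallest at 651 and 387.4 FPKM.

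Other genes of the bundle's length, tips and taper were counted in the same tests from a list of 20, all of which were kept by the filter. In cHCs, 9 of the 20 were higher than in SCs and 0 were lower (11 did not pass), beside 1.75% and 0.0888% of all genes: *Myo15*, the motor that carries the tip complex, with its cargo *Whrn*, the class III myosins *Myo3a* and *Myo3b*, *Baiap2l2*, *Grxcr1*, *Grxcr2*, *Elmod1* and *Dfnb59*. The median log2 difference of all 20 was 2.66, against 1.69 for the 10 members and 0.03 for all genes. The level of *Myo15* went from 8.70 and 1.46 CPM (SCs) to 669 and 927 CPM (cHCs), a difference of 7.30 ± 0.87 log2 units (edgeR adjusted p = 0.00119). In OHCs (P7), 10 of the 20 were higher than in SCs, the same 9 and *Twf2*, which binds the barbed ends of filaments, beside 2.56%. In OHCs (P22), 10 were higher and 2 were lower (*Cobl*, an actin nucleator, and *Gsn*, gelsolin), beside 4.01% and 4% of all genes. In IHCs, 8 were higher and 2 lower (*Cobl* and *Srgap2*), beside 2.23% and 0.42%.

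Like *Espnl*, *Myo3b* was high in cHCs and OHCs (P7) and low in SCs and mature HCs. Their order between the high types differed: *Espnl* libraries were higher in OHCs (P7), *Myo3b* libraries in cHCs. *Myo3b* was at 0.0887 and 0.239 CPM in SCs, 96.5 and 203 CPM in cHCs, 70.4 and 42.8 CPM in OHCs (P7) and at 0 counts in all 4 mature HC libraries. Against a floor of 3 counts over the group, its level in cHCs was at least 1908-fold higher than in OHCs (P22) and at least 3195-fold higher than in IHCs. It passed as lower in mature OHCs than in cHCs (edgeR adjusted p = 0.00511) and than in OHCs (P7) (0.0188), and in IHCs than in cHCs (0.00602) and than in OHCs (P7) (0.0149). It was the 1 gene of the 20 to pass in each of these comparisons. *Myo3a* was at 358 and 260 CPM in cHCs, 187 and 130 CPM in OHCs (P7), 127 and 156 CPM in OHCs (P22) and 442 and 285 CPM in IHCs, and did not pass in any of them.

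**Figure D5:**
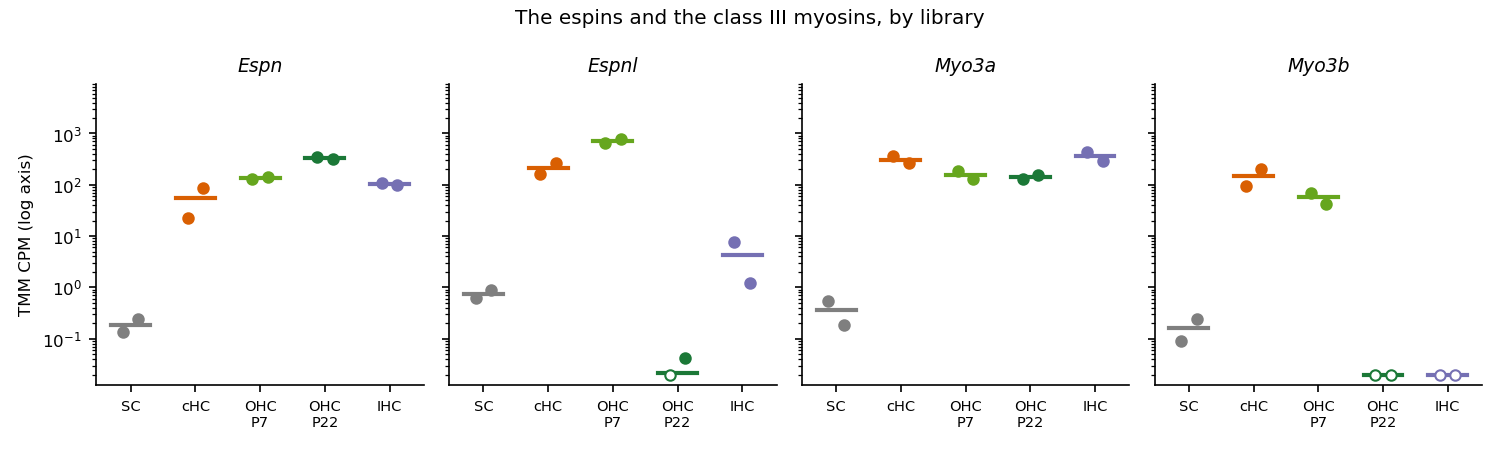
Levels (TMM CPM, log axis) of Espn, Espnl, Myo3a and Myo3b in the 2 libraries of each cell type, with the mean as a bar; open points at the bottom are 0 counts. Espnl and Myo3b are high in cHCs and OHCs at P7 and at or near 0 in OHCs at P22, whereas Espn and Myo3a are high in all HC types.

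Of 6 further relatives of the members, 3 were kept by the filter. *Lcp1*, which encodes plastin 2, another plastin, known from leukocytes, was at 165 and 464 CPM in SCs, 45.9 and 1.77 CPM in cHCs, 0.604 and 44.6 CPM in OHCs (P7), 732 and 662 CPM in OHCs (P22) and 334 and 409 CPM in IHCs. Its libraries in mature HCs stood well above those of cHCs and OHCs (P7), but the log2 difference between OHCs (P22) and OHCs (P7) of 4.94 ± 1.69 did not pass (edgeR adjusted p = 0.247), nor did that between OHCs (P22) and cHCs of 4.87 ± 1.68 (0.156). Of the 4 macrophage markers, *Cx3cr1* and *C1qa* were at 0 in both OHC (P22) libraries, *Cd68* was at 0 and 0.505 CPM and *Csf1r* at 0 and 7.45 CPM, and their part in the level of *Lcp1* was not tested. *Mprip*, the relative of *Triobp*, was at 129 to 491 CPM in all libraries without a call. *Eps8l1* was at 2.57 and 44.7 CPM in SCs, 2.04 and 2.03 CPM in cHCs, 0 in OHCs (P7), 0.0881 and 0.421 CPM in OHCs (P22) and 49.2 and 1.61 CPM in IHCs. It passed as lower in native HCs as a class than in SCs (edgeR adjusted p = 0.0297), which rests on the OHCs, since the IHCs overlapped with the SCs.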

How the data were processed

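Total RNA of handpicked cells was amplified by the authors as cDNA at a constant temperature and sequenced, and they mapped the reads to mm9 with STAR and BWA and counted them per gene with HTSeq; these tool names come from the study's methods and the submitters' processing notes, which also name CASAVA 1.7. The deposited values are raw counts per gene, without normalization. The strand setting is not given in the sources used here. For 4 of 10 samples the attached file carried another sample's name, and files were assigned by the sample title in their name. This was checked against the CPM table in the study's supplement, where each file matched 1 library. Counts were tested with edgeR 4.0.16 (R 4.3.3; TMM, filterByExpr, quasi-likelihood F-tests, common dispersion 1.12), with limma 3.58.1 and DESeq2 1.42.0 as alternatives, on all 10 libraries. Standard errors are the log2 fold change over the square root of F. FPKM used exon lengths of GENCODE on mm9. Scripts were tested on simulated data. The members and gene lists were chosen with earlier results of these data known, by the rule that all members are named, with list genes that passed and the most abundant others; *Lcp1*, *Myo3a* and the markers printed were named after their values were seen. At 3 counts, a level of 0.0740 to 0.200 CPM before TMM scaling is reached.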

Additional observations from a re-analysis of the deposited data

How the results depend on the processing

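Counts of called members depended on the processing as follows, with the cause not tested unless the setting itself shows it. With the files as attached to the records, 4 of which belong to another sample, 0 members and at most 1 of all 16891 genes were called in each comparison. With those files, the log2 differences between cHCs and SCs of *Fscn1*, *Pls1* and *Eps8* turned to 1.02, 0.39 and 0.65. That of *Xirp2* between OHCs (P22) and cHCs turned to 0.85, and those of *Espnl* between IHCs or native HCs and SCs to -4.20 and -4.27. A minimum of 10 counts in every library kept only 4 members, with 2 called between OHCs (P22) or native HCs and SCs, 1 in the joint test and 0 in the others. Of the 7279 genes it kept, 908, 835 and 827 were called in these, and 50 to 379 in the others. DESeq2 called 5 members between IHCs and SCs, 8 between native HCs and SCs and 6 between OHCs (P22) and cHCs. Of all 16891 genes it called 2302, 3699 and 2726 there, against 447, 1750 and 537 with edgeR. It called 4 members between IHCs and cHCs and between OHCs (P22) and OHCs (P7), beside 1376 and 1640 of all genes (edgeR 156 and 93). Between IHCs and OHCs at P22 or P7 it called 3 members each, beside 2042 and 1330 of all genes (edgeR 247 and 64). Limma-voom called 1 between OHCs (P7) and cHCs, 4 between OHCs (P22) and cHCs and 0 between IHCs and OHCs (P22), beside 378, 930 and 299 of all genes. Without a filter on low counts there were 7 between IHCs and SCs, 8 between native HCs and SCs, 4 between OHCs (P22) and cHCs and 2 between OHCs (P22) and either OHCs (P7) or IHCs. Of the 23415 genes then tested, 1220, 2895, 1591, 844 and 1156 were called in these comparisons. With only genes above 35 CPM in at least 2 libraries there were 3 between OHCs (P22) and cHCs and 1 between cHCs and native HCs. Of the 7122 genes then tested, 846 and 659 were called. A fit of only the compared cell types gave 2 between cHCs and SCs, 4 between OHCs (P22) and SCs, 1 between cHCs and native HCs and 0 between IHCs and either cHCs or OHCs (P22). In the same order, it called 198 of 14400 genes, 1032 of 13341, 723 of 16332, 195 of 14833 and 117 of 13619. The other scalings (RLE, upper quartile, library totals) kept every count within 1.5 times.

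Leaving out each library in turn changed the number of members called in most comparisons. The number of all genes called changed as well, and each such fit leaves 1 library in a cell type, so these counts are not listed. The *Fscn1* log2 difference between cHCs and SCs ranged from -2.01 to 0.49 (the highest without SC replicate 11), that of *Pls3* between OHCs (P22) and cHCs from -2.38 to 2.01 (the highest without cHC replicate 16) and that of *Xirp2* from -0.70 to 0.19 (the highest without the OHC library labelled P22). Of the members, 5 had their highest mean in OHCs (P22) with TMM scaling and 4 with library totals. The median correlation over the 45 pairs of members was 0.076 with Pearson's r and 0.127 with Spearman's rho. No paired analysis was possible because the cell types share no replicate numbers. With 2 libraries a group, an exact permutation test of 2 against 2 cannot reach the threshold, and levels of a few counts, such as *Fscn1* in mature HCs, carry wide counting error.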

Other observations

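Among 15 actins and general actin regulators, 0 passed between cHCs and SCs with edgeR (median log2 difference -0.10, against 0.03 for all genes). At an unadjusted p under 0.05 it was 1, beside 2532 of the 16891 genes. DESeq2 and limma-voom each called 1, *Actn4*, beside 1764 and 1065 of the 16891 genes. In OHCs (P22), 3 were lower than in SCs and 0 were higher, beside 4% and 4.01% of all genes: *Actb* and *Actg1*, the non-muscle actins of stereocilia, and *Tmsb4x*, which binds actin monomers. *Actb* was at 803 and 1269 CPM in SCs, 530 and 1035 CPM in cHCs, 318 and 416 CPM in OHCs (P7), 44.5 and 75.7 CPM in OHCs (P22) and 262 and 325 CPM in IHCs, with a log2 difference of -3.70 ± 0.54 between OHCs (P22) and cHCs (edgeR adjusted p = 0.00649). *Actg1* was at 265 and 477 CPM in cHCs and 68.9 and 59.8 CPM in OHCs (P22), also lower (-2.53 ± 0.54, adjusted p = 0.0299). Both non-muscle actins were thus lowest in OHCs (P22), the cell type with the largest summed level of the bundling genes.

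In the cuticular plate, the actin mesh under the bundle, *Lmo7*, which organises that mesh, was at 189 and 137 CPM in cHCs, 824 and 709 CPM in OHCs (P7), 7878 and 5479 CPM in OHCs (P22) and 1275 and 756 CPM in IHCs. It was higher than in SCs in each native HC type and lower in cHCs than in native HCs (log2 difference -3.41 ± 0.47, edgeR adjusted p = 0.00336). *Tpm1*, tropomyosin 1, was at 668 and 815 CPM in cHCs against 70.1 and 106 CPM in SCs (3.08 ± 0.49, adjusted p = 0.00753), and higher than in native HCs by 1.62 ± 0.34 (0.0254). *Ezr*, which encodes ezrin, a linker of actin to the membrane of microvilli, was at 259 and 103 CPM in cHCs and 6.24 and 10.4 CPM in OHCs (P7), and higher in cHCs than in native HCs by 3.77 ± 0.58 (0.00555).

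Over the 10 libraries, which share cell types in pairs and are not independent, the genes most like *Espn* in log2 CPM were *Pdgfra* (Pearson's r 0.994) and *Loxhd1*, a stereocilia membrane gene (0.993). Those most like *Xirp2* were *Scg3* (0.993, Spearman's rho 0.891) and *Pou4f3* (0.992, but a rho of 0.467, the SC libraries standing apart from the rest), most like *Fscn2* were *Kncn* (0.985) and *Srrm3* (0.981), and most like *Espnl* were *Pcdhb12* (0.956) and *Sybu* (0.955). For *Fscn1* they were *Fam72a* (0.983) and *Hist1h4d* (0.972), for *Triobp* *Pln* (0.970) and *Mtr* (0.970), and for *Eps8l2* *Iqce* (0.972) and *2700049A03Rik* (0.969). Among the members, 8 of 45 pairs had r above 0.8, all within *Espn*, *Fscn2*, *Xirp2*, *Eps8l2* and *Triobp*. The highest r was that of *Espn* with *Xirp2* (0.956, but a rho of 0.685), and *Fscn2* with *Xirp2* had 0.915 with a rho of 0.382. By rho, the highest pair was *Espn* with *Triobp* (0.964, r 0.848). The lowest pair was *Fscn1* with *Fscn2* (r -0.809, rho -0.830).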
